A study of Rattus norvegicus with 6 samples.

Results

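The 10 genes described here encode transcription factors that specify or maintain endothelial cells, and they were chosen by symbol from a list of general endothelial factors (Erg, Fli1, Ets1, Sox7, Sox17, Sox18, Tal1 and Lmo2) and of factors of the liver sinusoid (Gata4 and Maf). All 10 were found among the 32623 genes measured, each under 1 identifier, and all 10 passed the filter on low counts that left 12742 genes for testing. RNA came from primary liver sinusoidal endothelial cells of Han Wistar rats, the fenestrated cells that line the capillaries of the liver. They had been cultured for 48 h in a perfused device together with hepatocytes, stellate cells and hepatic macrophages of the rat. Each group had 3 libraries. The pathological group was kept at 12 mmHg of hydrodynamic pressure, of the kind reached in portal hypertension, and the physiological group at 1 mmHg. Both groups received the same dynamic shear stress of 1.15 dyn/cm2. The labels give no age, no sex and nothing on whether each library had its own animal or culture. The tests therefore measure only the spread between these libraries, which may be technical.

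ETS factors bind DNA sites with a GGAA core, and most endothelial enhancers carry such sites. ERG and FLI1 are close relatives within this family and keep endothelial genes such as Cdh5 active, while ETS1 acts in growing vessels. The SOXF group (SOX7, SOX17 and SOX18) acts in arterial and lymphatic fate. TAL1 and the LIM-only protein LMO2, which does not bind DNA by itself, work in complexes with GATA factors in early blood and endothelial cells. In mouse liver, GATA4 is needed for the fenestrated sinusoidal fate, and its loss gives continuous, capillary-like vessels. MAF (c-MAF) has been assigned a role in the sinusoidal programme as well, and it is also used by macrophages and other cells.

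Promoter windows were matched for 3 of the 10 genes (RefSeq, GRCr8, 250 bases before to 50 after the gene's start), and they are shown because the motifs of these families can be read in them. Capitals mark matches, on either strand, to the ETS core GGAA, the GATA motif AGATAA, the SOX motif AACAAT and the E-box CAGNTG that TAL1 dimers bind. The MAF motif TGCTGA was searched as well.
Erg promoter, chr11:48251517-48251816, minus strand: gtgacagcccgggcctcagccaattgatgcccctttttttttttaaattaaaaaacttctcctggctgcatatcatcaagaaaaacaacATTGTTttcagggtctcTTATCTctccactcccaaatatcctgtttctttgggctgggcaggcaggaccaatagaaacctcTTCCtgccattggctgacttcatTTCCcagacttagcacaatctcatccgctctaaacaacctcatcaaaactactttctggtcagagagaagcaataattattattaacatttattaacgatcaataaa
Tal1 promoter, chr5:133824214-133824513, plus strand: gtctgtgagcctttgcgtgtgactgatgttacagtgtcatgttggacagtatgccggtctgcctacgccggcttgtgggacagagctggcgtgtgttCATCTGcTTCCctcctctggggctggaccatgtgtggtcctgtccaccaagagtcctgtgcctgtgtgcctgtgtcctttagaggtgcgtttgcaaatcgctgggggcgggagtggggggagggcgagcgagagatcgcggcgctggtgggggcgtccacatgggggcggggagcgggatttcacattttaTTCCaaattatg
Maf promoter, chr19:60621307-60621606, minus strand: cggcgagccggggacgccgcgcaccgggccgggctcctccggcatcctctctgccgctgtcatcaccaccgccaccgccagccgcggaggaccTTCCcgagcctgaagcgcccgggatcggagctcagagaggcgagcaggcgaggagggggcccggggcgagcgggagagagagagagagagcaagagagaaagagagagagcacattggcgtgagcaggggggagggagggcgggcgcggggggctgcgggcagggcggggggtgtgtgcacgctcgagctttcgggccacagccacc
The Erg window held 2 ETS cores, 1 GATA motif and 1 SOX motif, the Tal1 window held 2 ETS cores and 1 E-box, and the Maf window held 1 ETS core. None of the 3 windows held the MAF motif. Among 33469 promoter windows of the same length, 95.8% held the ETS core, 11.6% the GATA motif, 11.7% the SOX motif, 50.2% the E-box and 18.4% the MAF motif, so the ETS core in itself sets these promoters apart from few others. A match is a stretch of letters and not evidence of binding. Windows for Fli1, Ets1, Sox7, Sox17, Sox18, Lmo2 and Gata4 were not used here. Fli1 and Ets1 are direct neighbours on chromosome 8 with 0 protein-coding genes between them, and Gata4 and Sox7 lie on chromosome 15 with 6 protein-coding genes between them (RefSeq, GRCr8).

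The libraries differed in ways that the pressure groups do not account for. Totals ran from 11426299 to 23754767 counts in the pathological libraries and from 8925149 to 24025406 counts in the physiological libraries. Replicate 3 of each group was the least complex, with no count for 26.5% of tested genes in pathological replicate 3 and for 23.6% in physiological replicate 3, against 0.981% to 10.7% in the other 4 libraries. Transcripts of a 20-gene hepatocyte list summed to 377, 819 and 71700 CPM (counts relative to the library's scaled total) in pathological replicates 1, 2 and 3, and to 233, 49400 and 42500 CPM in physiological replicates 1, 2 and 3. Pathological replicates 1 and 2 and physiological replicate 1 were thus poor in hepatocyte RNA, and the other 3 libraries were rich in it. Of the other lists, 15 matched stellate cell genes summed to 440 to 1510 CPM in the pathological and 547 to 1280 CPM in the physiological libraries. One gene, Reln, held most of that sum in the 3 libraries poor in hepatocyte RNA. Without Reln, set apart after its values were seen, the stellate list summed to 14.8, 38.3 and 1510 CPM in pathological replicates 1, 2 and 3. In physiological replicates 1, 2 and 3 it summed to 29.7, 1200 and 1250 CPM, again higher in the libraries rich in hepatocyte RNA. Lrat alone held 923 CPM in pathological replicate 3, and 605 and 660 CPM in physiological replicates 2 and 3. Not every gene of the list followed this order, as Pdgfrb and Acta2 had no count in pathological replicate 3. A list of 15 matched macrophage genes summed to 53.6 to 1570 CPM in the pathological and 663 to 1330 CPM in the physiological libraries. Lymphocyte genes summed to at most 107 CPM, with 7 to 13 of 14 genes at 0 in each library, and erythroid and megakaryocyte genes to at most 21.3 CPM, with 2 to 8 of 8 at 0 and Gata1 without a count in 4 libraries. The endothelial cadherin gene Cdh5 was present at 199, 220 and 184 CPM in the pathological and at 320, 227 and 215 CPM in the physiological libraries. Pecam1 was not matched in the files and was not analysed here.

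**Figure D1:**
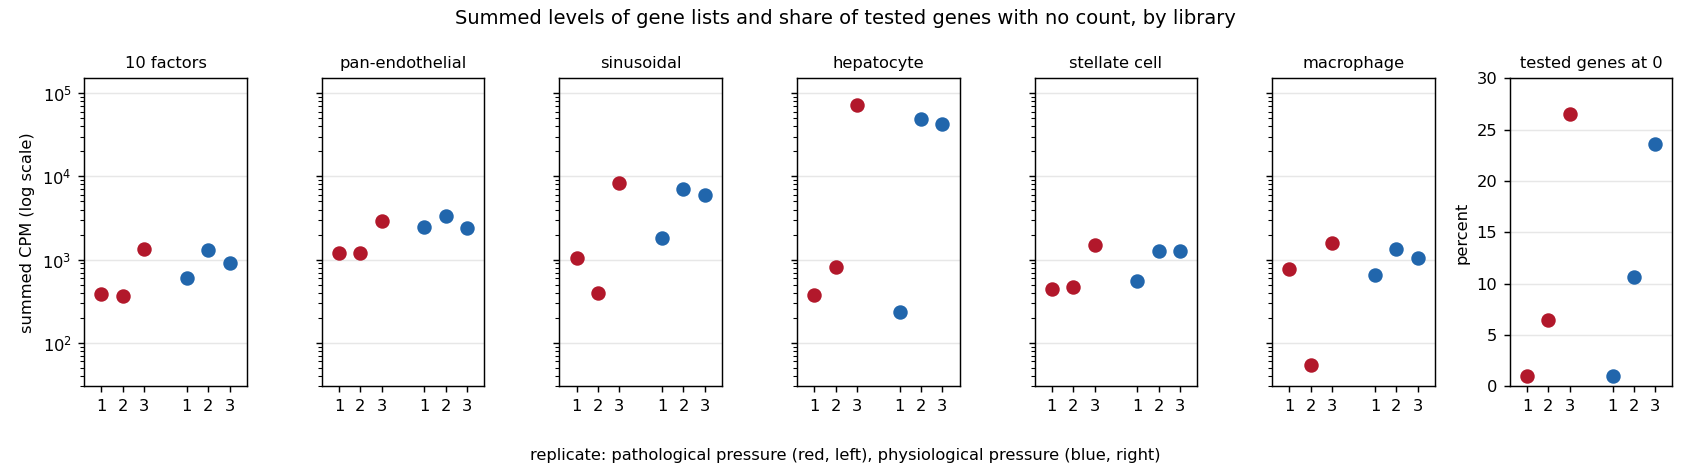
Summed CPM (log axis) of the 10 transcription factors and of 5 marker lists, and the percent of tested genes with no count, for each library (pathological replicates in red on the left, physiological in blue on the right). Hepatocyte transcripts lie between 233 and 819 CPM in 3 libraries and between 42500 and 71700 CPM in the other 3.

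For none of the 10 factors did a difference between the pressures pass the test against the spread of the libraries. With edgeR's quasi-likelihood test 0 of the 10 had an adjusted p under 0.05, where the share of all tested genes called was 0%. The unadjusted edgeR p was under 0.05 for 0 of the 10 as well, beside 33 of 12742 genes (0.259%). At an adjusted p under 0.05, DESeq2 and limma-voom also called 0 of the 10, beside 1 and 0 of all tested genes. Their unadjusted p was under 0.05 for 0 of the 10 with DESeq2 (1.46% of all tested genes) and for 1 of the 10 with limma-voom (1.25%). The fold changes nevertheless leaned to one side. Of the 10 log2 fold changes (pathological against physiological), 8 were negative and 2 positive, with a median of -0.71, while 47.5% of all tested genes were negative with a median of 0.05. The 2 positive values were those of Sox18 and Gata4. In such bulk libraries, fewer endothelial cells and less RNA of a gene per endothelial cell cannot be told apart.

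**Figure D2:**
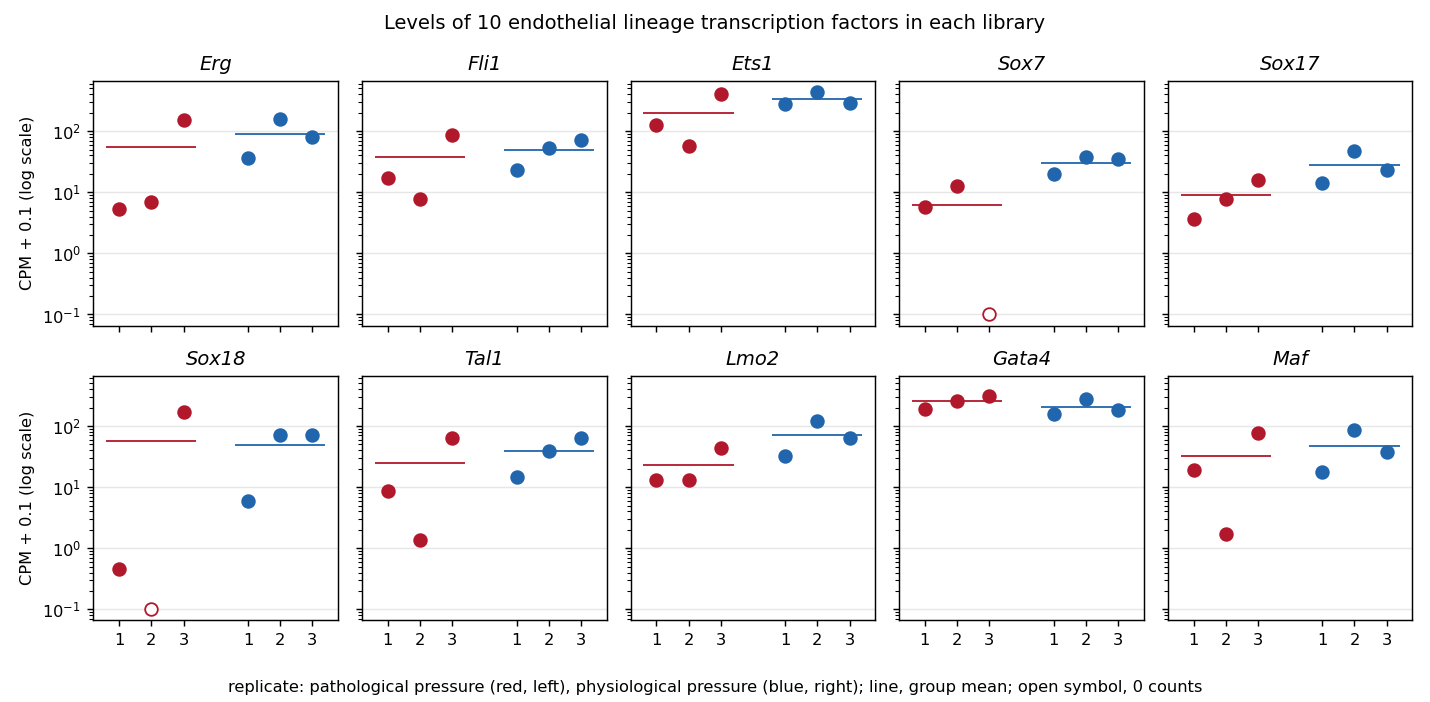
CPM plus 0.1 (log axis) of each factor in each library, with pathological replicates in red on the left and physiological replicates in blue on the right; lines are group means (n = 3) and open symbols are libraries with 0 counts. Gata4 spans 155 to 308 CPM over the 6 libraries, while Sox18 spans 0 to 170 CPM.

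Among the ETS factors, Erg stood at 5.15, 6.87 and 151 CPM in pathological replicates 1, 2 and 3, against 36.6, 158 and 79.8 CPM in physiological replicates 1, 2 and 3. Pathological replicates 1 and 2 were lower than every physiological library, and pathological replicate 3 lay among them, so the groups overlapped. Means were 54.5 ± 83.9 CPM at pathological and 91.4 ± 61.5 CPM at physiological pressure (SD, n = 3 each), and the log2 fold change was -0.75 (95% CI -3.79 to 2.30, edgeR adjusted p = 1). Fli1 measured 16.8, 7.72 and 87.6 CPM in the pathological libraries, against 23.1, 52.1 and 70.8 CPM in the physiological libraries. Its lowest pair and its highest value were all pathological, and the log2 fold change was -0.38 (95% CI -2.89 to 2.13). Ets1 had 125, 57.9 and 411 CPM at pathological pressure, against 281, 435 and 285 CPM at physiological pressure. Again the first 2 pathological libraries lay under all physiological ones and the third lay within their range. The log2 fold change of Ets1 was -0.75, with a narrower 95% CI of -2.57 to 1.07. Fli1 and Ets1 had similar profiles over the 6 libraries. The root mean square distance between their mean-centred log2 CPM was 0.53, the second smallest among the 45 pairs of factors. Fli1 and Ets1 are neighbours on the chromosome. Gata4 and Sox7, also close on a chromosome, stood at a distance of 3.12, with no count of Sox7 in pathological replicate 3. The part of chromosomal position in these distances was not tested.

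Of the SOXF genes, Sox7 and Sox17 had negative log2 fold changes and Sox18 a positive one, which turned negative without pathological replicate 3. Sox7 was the 1 factor of the 10 whose groups did not overlap, where 3.05% of all tested genes were lower and 1.56% higher at pathological pressure without overlap. It had 5.69, 12.5 and 0 CPM in the pathological libraries, against 19.8, 37.4 and 34.6 CPM in the physiological libraries. The 0 is 0 counts in pathological replicate 3, which allows up to 0.284 CPM by counting error alone, and it is 1 of 3372 tested genes without a count in that library. Means of Sox7 were 6.06 ± 6.26 CPM at pathological and 30.6 ± 9.49 CPM at physiological pressure, with a log2 fold change of -2.33 (95% CI -6.49 to 1.83, edgeR adjusted p = 1). Without pathological replicate 3 it was -1.75. Sox17, a gene of arterial endothelium, had 3.54, 7.67 and 15.8 CPM in the pathological libraries, against 14.1, 47.2 and 23.4 CPM in the physiological libraries. Only pathological replicate 3 overlapped with the physiological range, and there only with physiological replicate 1. The log2 fold change of Sox17 was -1.65 (95% CI -4.47 to 1.18).

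Sox18, known from lymphatic and blood vessel development, gave the widest span. It had 0.358, 0 and 170 CPM in the pathological libraries, against 5.92, 70.6 and 72.1 CPM in the physiological libraries. These rest on 10, 0 and 1796 counts at pathological pressure and 180, 1221 and 506 counts at physiological pressure, and the 0 in pathological replicate 2 allows up to 0.142 CPM. The highest and the 2 lowest libraries were thus pathological. Sox18 was lower in every library poor in hepatocyte RNA than in every rich one. The same held for Erg, Fli1, Ets1, Sox17, Tal1, Lmo2 and Maf, and not for Sox7 or Gata4. The share of all tested genes that split this way is not given, so the split cannot be called particular to these factors. Pairs of a poor and a rich library also differed most from each other (chi-square per degree of freedom 818 to 1200, against 89 to 417 within a set). The part of hepatocyte content in the split was not tested. The log2 fold change of Sox18 was 0.20 (95% CI -5.05 to 5.45), and without pathological replicate 3 it was -8.03 (edgeR adjusted p = 0.839). Pathological replicate 3 therefore held the highest Sox18 of all 6 libraries beside no count of Sox7. The profiles of Sox7 and Sox18 were the farthest apart of the 45 pairs, at a distance of 5.47. Each of these profiles included a library at 0 counts, so the distance rests in part on those zeros.

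Of the TAL1 complex, Tal1 measured 8.51, 1.28 and 63.1 CPM in the pathological libraries, against 14.5, 39.6 and 62.6 CPM in the physiological libraries. Replicate 3 of both groups was highest and almost equal, and the log2 fold change was -0.68 (95% CI -3.90 to 2.54). Lmo2 had 13.2, 12.8 and 43.9 CPM at pathological pressure, against 32.0, 119 and 62.9 CPM at physiological pressure. Its means were 23.3 ± 17.8 CPM at pathological and 71.5 ± 44.3 CPM at physiological pressure, and its log2 fold change of -1.62 (95% CI -3.78 to 0.54) had the smallest unadjusted p of the 10 (edgeR adjusted p = 1). Only physiological replicate 1 lay below the highest pathological library. Sox17 and Lmo2 had the most similar profiles of all 45 pairs, at a distance of 0.34. Tal1 is also an erythroid gene, and the erythroid and megakaryocyte list summed to 8.33, 4.17 and 21.3 CPM in the pathological and to 7.83, 6.54 and 0 CPM in the physiological libraries. The part of such cells in the level of Tal1 was not tested. Physiological replicate 3, with 62.6 CPM of Tal1, had no count for any of the 8 genes. That library also had the smallest total and no count for 23.6% of tested genes, so these zeros carry little weight.

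The sinusoidal factor Gata4 was the steadiest of the 10. It stood at 191, 259 and 308 CPM in the pathological libraries, against 155, 274 and 180 CPM in the physiological libraries. The groups overlapped over most of their range, and all 6 libraries lay within 2-fold of each other. Means were 253 ± 59.1 CPM at pathological and 203 ± 62.7 CPM at physiological pressure, with a log2 fold change of 0.32 (95% CI -0.98 to 1.62, edgeR adjusted p = 1). The SD of log2 CPM over the 6 libraries was 0.39 for Gata4 and 1.13 to 4.37 for the other 9 factors. Hepatic stellate cells also express Gata4. In the 3 libraries poor in hepatocyte RNA, Gata4 stood at 155 to 259 CPM. There the stellate list summed to 440 to 547 CPM with Reln and to 14.8 to 38.3 CPM without it. Reln was set apart after its values were seen. The part of stellate RNA in the level of Gata4 was not tested.

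Maf, the second sinusoidal factor, did not share this pattern. It measured 19.3, 1.61 and 77.4 CPM in the pathological libraries, against 17.5, 85.6 and 38.2 CPM in the physiological libraries. Pathological replicate 2 was lowest by far, with 34 counts, and pathological replicate 1 was level with physiological replicate 1. The log2 fold change was -0.52 (95% CI -3.56 to 2.51), and leaving out a library gave between -2.17 (pathological replicate 3 left out) and 0.25 (physiological replicate 2 left out). The macrophage list summed to 763, 53.6 and 1570 CPM in the pathological and to 663, 1330 and 1050 CPM in the physiological libraries, lowest in the library where Maf was lowest, with 3 of its 15 genes at 0 there. The part of macrophage RNA in the level of Maf was not tested. Maf lay nearer to Tal1 (distance 0.63) than to Gata4 (1.87).

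**Figure D3:**
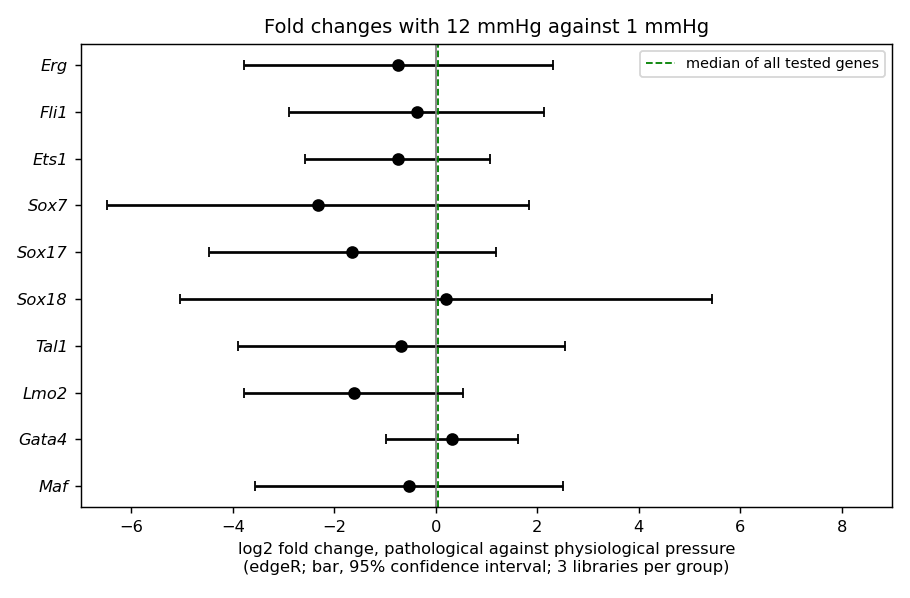
Log2 fold change of each factor, pathological against physiological pressure, with the 95% confidence interval of the edgeR fit (3 libraries per group); the dashed line is the median of all tested genes, 0.05. All 10 intervals include 0, and Gata4 has the narrowest, from -0.98 to 1.62.

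The relation between general and sinusoidal factors was followed as ratios within a library, which do not depend on scaling. A ratio's size depends on transcript lengths, so only its change between libraries is read. Gata4 over Erg was 37.0, 37.8 and 2.04 in pathological replicates 1, 2 and 3, against 4.23, 1.73 and 2.25 in physiological replicates 1, 2 and 3. The first 2 pathological libraries stood apart from the other 4, and pathological replicate 3 lay within the physiological range. Gata4 over Ets1 was 1.52, 4.48 and 0.749 at pathological pressure, against 0.550, 0.629 and 0.630 at physiological pressure, and these groups did not overlap. Maf over Erg was 3.76, 0.234 and 0.512 at pathological pressure, against 0.480, 0.542 and 0.479 at physiological pressure. That ratio was thus above the physiological range in pathological replicate 1, below it in replicate 2 and within it in replicate 3. Gata4 over Maf was 9.86, 161 and 3.98 at pathological pressure, against 8.83, 3.20 and 4.71 at physiological pressure, and these groups overlapped. Of the 45 pairs among the 10 factors, 4 had ratios without overlap between the groups, and all 4 were Gata4 against a general factor (Ets1, Sox7, Sox17 and Lmo2). Relative to Gata4, these 4 factors were lower at pathological pressure, as were 4.86% of all tested genes without overlap, with 0.4% higher. The ratios printed were chosen after the values were known, and no test is given.

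The factors were also set against 21 pan-endothelial genes of the same library (receptors, junction and surface genes of all endothelium). Relative level means here the log2 CPM of a factor minus the mean log2 CPM of these genes. The relative level of Ets1 was 2.17 ± 0.58 at pathological and 2.35 ± 0.37 at physiological pressure, and that of Fli1 was -0.50 ± 0.82 at pathological and -0.54 ± 1.17 at physiological pressure (SD, n = 3 each). Erg averaged -0.85 ± 1.63 at pathological and 0.27 ± 0.94 at physiological pressure, a difference of -1.12. Leaving out pathological replicate 3 made the Erg difference -2.05, and leaving out pathological replicate 1 made it -0.53, the extremes of the 6 omissions. The differences of Sox7 and Sox18, each with a library at 0, were -2.90 and -2.94. That of Sox7 was -0.16 without pathological replicate 3, which had no Sox7 count, and -4.56 without pathological replicate 2. That of Sox18 was -1.13 without pathological replicate 2, which had no Sox18 count, and -5.52 without pathological replicate 3. The relative level of Gata4 was 3.17, 3.67 and 2.04 in the pathological libraries, against 1.27, 1.46 and 2.11 in the physiological libraries. The difference of Gata4 was 1.35, the highest of the 10, with an overlap between pathological replicate 3 and physiological replicate 3. None of the 10 had groups without overlap, where 0.181% of all tested genes were lower and 6.25% higher at pathological pressure without overlap on this scale. With Cdh5 alone in place of the list, the difference was 0.65 for Gata4 and between -3.64 and -0.65 for the other 9. The mean of the pan-endothelial genes was itself 4.41, 4.35 and 6.23 log2 CPM in the pathological and 6.01, 6.63 and 5.38 log2 CPM in the physiological libraries.

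**Figure D4:**
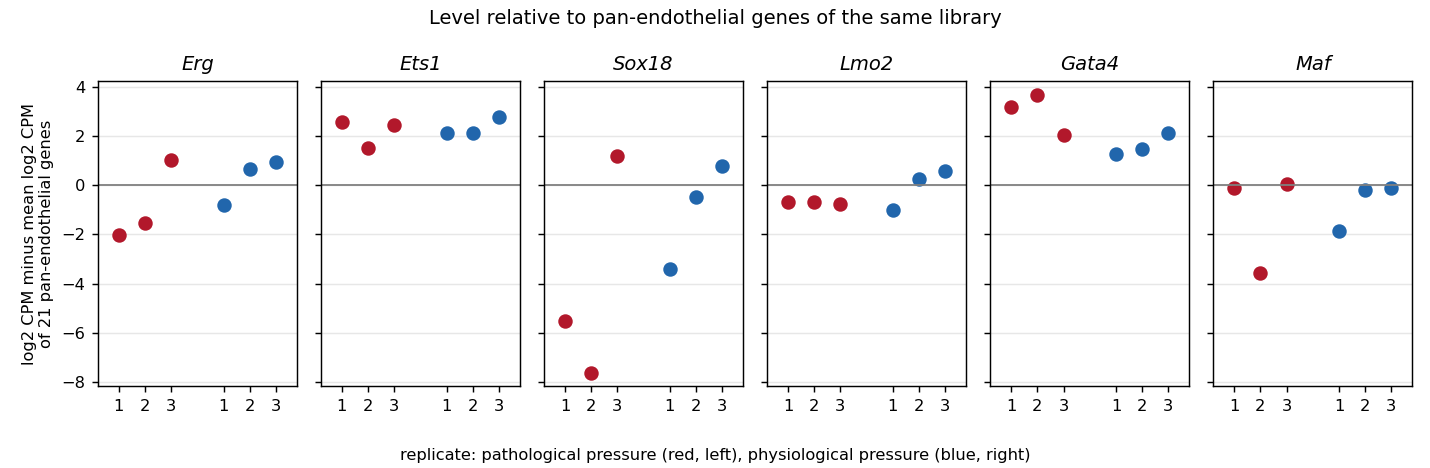
Level of 6 factors relative to pan-endothelial genes, as log2 CPM minus the mean log2 CPM of 21 genes in the same library (pathological replicates in red on the left, physiological in blue on the right). Gata4 lies at 2.04 to 3.67 in the pathological and at 1.27 to 2.11 in the physiological libraries.

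Leaving out pathological replicate 3 moved most of these fold changes. In pathological replicates 1 and 2, all 8 general factors lay below every physiological library, and Gata4 and Maf did not. Both of these libraries were poor in hepatocyte RNA. Physiological replicate 1, poor in it as well, was the lowest physiological library for all 8. Leaving out pathological replicate 3 removed the only pathological library rich in hepatocyte RNA. Pressure and hepatocyte content were then harder to tell apart, and the part of each was not tested. Without pathological replicate 3, 11.7% of all tested genes were lower and 13.7% higher without overlap. Pathological replicate 3 itself lay above all physiological libraries for 4 of the 10 factors, within their range for 5 and below it for Sox7. When it was left out, the log2 fold changes were -3.93 for Erg, -1.99 for Fli1, -1.87 for Ets1, -2.33 for Sox17, -2.99 for Tal1, -2.45 for Lmo2 and 0.15 for Gata4. Their median over the 10 factors was then -2.25, beside 0.03 for all tested genes. An unadjusted p under 0.05 was reached by 4 of the 10 factors, beside 5.92% of all tested genes, and an adjusted p under 0.05 by 0 of the 10, beside 0%. In edgeR, the smallest adjusted p of a factor in this fit was 0.839. When limma-voom weighted the libraries by their spread, all 10 log2 fold changes were negative and 8 had an unadjusted p under 0.05, beside 19.8% of all tested genes. The limma adjusted p was under 0.05 for 0 of the 10.

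**Figure D5:**
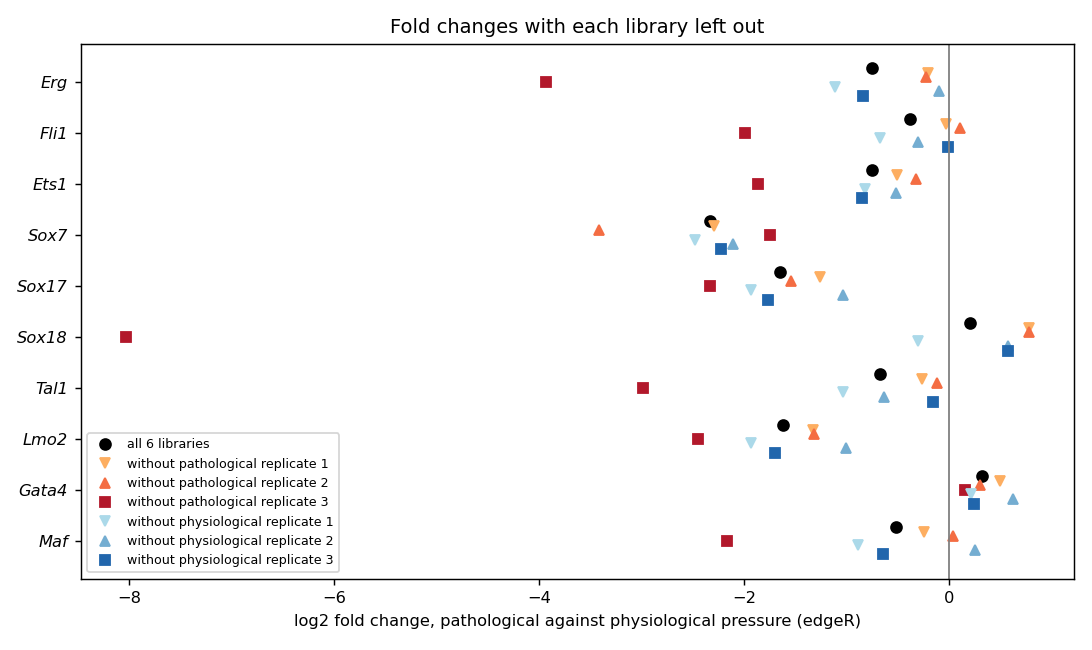
Log2 fold change of each factor, pathological against physiological pressure, with all 6 libraries (black) and with each library left out. The values without pathological replicate 3 reach -8.03 for Sox18 and -3.93 for Erg, while those of Gata4 stay between 0.15 and 0.62.

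Hepatocyte RNA was unevenly spread over the groups, so values within libraries of like content stand beside the pooled ones. In the 3 libraries poor in hepatocyte transcripts (2 pathological, 1 physiological) the log2 fold changes were -2.57 for Erg, -0.88 for Fli1, -1.58 for Ets1, -1.09 for Sox7, -1.30 for Sox17, -4.94 for Sox18, -1.52 for Tal1, -1.27 for Lmo2, 0.57 for Gata4 and -0.70 for Maf. In the 3 rich libraries (1 pathological, 2 physiological) they were 0.36 for Erg, 0.53 for Fli1, 0.20 for Ets1, -1.15 for Sox17, 1.27 for Sox18, 0.32 for Tal1, -1.04 for Lmo2, 0.46 for Gata4 and 0.33 for Maf. Sox7 had no count in the 1 rich pathological library, against 37.4 and 34.6 CPM in the 2 rich physiological libraries. The direction of Erg, Fli1, Ets1, Sox18, Tal1 and Maf thus depended on which libraries were compared. Sox7, Sox17 and Lmo2 were lower at pathological pressure in both sets of libraries, and Gata4 was higher in both. The share of all tested genes with the same sign in both sets is not given, and each set has a group of 1 library. With edgeR, 0 of the 10 factors passed an adjusted p of 0.05 in the poor libraries (0% of all tested genes) or in the rich ones (1.22%). A group of 1 library is assumed there to vary like the other. With only the 4 libraries that had a count for over 80% of tested genes, a choice made after seeing the data, the log2 fold changes were -4.02 for Erg, -7.66 for Sox18, -2.54 for Lmo2 and 0.07 for Gata4. Both pathological libraries in that set were poor in hepatocyte RNA. Among all 10 factors, 4 had an unadjusted p under 0.05, beside 2.62% of all tested genes, and 0 passed the adjusted threshold (0%).

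Among the 3 genes whose profile over the 6 libraries was closest to that of Erg, out of 9536 compared, were the fatty acid desaturase gene Fads1, the Ras and Rap exchange factor gene Rasgrp3 and the adaptor gene Grap, at distances of 0.29, 0.35 and 0.37. Fads1 had 7.90, 7.34 and 191 CPM in the pathological libraries, against 36.2, 127 and 94.2 CPM in the physiological libraries. Like Erg, all 3 genes were lower in each library poor in hepatocyte RNA than in each rich one. The part of hepatocyte content in these profiles was not tested. The closest to Gata4 were the transcription elongation gene Supt4h1, the clathrin adaptor gene Ap2m1 and Pdap1, at distances of 0.08, 0.10 and 0.12. Ap2m1 had 335, 449 and 543 CPM in the pathological libraries, against 319, 537 and 352 CPM in the physiological libraries, and like Gata4 it varied little.

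Other transcription factors of endothelium showed no common direction. Of 33 such genes 26 were tested, and 16 had negative and 10 positive fold changes, with a median of -0.17 and 0 past the threshold. The fold changes of Klf4, a flow-responsive factor, and of Hes1, a Notch target, were 1.29 and 1.73 on the log2 scale, with an edgeR adjusted p of 1 for both. Of 35 matched relatives of the 10 factors, some of them also in the list above, 27 were tested, with 15 negative, 12 positive, a median of -0.13 and 0 past the threshold. Lmo1 and Sox9 had the smallest p among these, with log2 fold changes of -4.57 and -3.97 on at most 68 counts in a library. Maff, a small MAF protein gene chosen after its values were seen, measured 361, 662 and 409 CPM in the pathological libraries, against 255, 286 and 307 CPM in the physiological libraries. Its groups did not overlap, opposite in order to those of Sox7, and its log2 fold change was 0.76 (95% CI -0.52 to 2.03, edgeR adjusted p = 1).

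Fold changes were mostly negative for other genes of the endothelial programme. The pan-endothelial list had 20 negative values among 21 tested genes, a median of -0.77 and 0 past the threshold. Ptprb, the endothelial phosphatase that acts on the TIE2 receptor, had 31.8, 13.9 and 13.8 CPM in the pathological libraries, against 116, 67.0 and 44.6 CPM in the physiological libraries, with a log2 fold change of -1.94 (95% CI -3.89 to 0.01). Icam2, an adhesion gene controlled by ERG in human endothelium, stood at -2.68 on this scale, with a 95% CI of -6.06 to 0.71. The sinusoidal list had 16 negative values among 18 tested genes, a median of -0.64 and 0 past the threshold. Among them, Bmp2 and Rspo3, angiocrine signals of the sinusoid, had log2 fold changes of -1.46 and -3.76. Genes of continuous endothelium, a programme that gains expression when Gata4 is lost in mouse liver, had 13 negative values among 15 tested, a median of -0.51 and 0 past the threshold. The fatty acid binding protein gene Fabp4 measured 65.9, 27.1 and 164 CPM in the pathological libraries, against 217, 361 and 496 CPM in the physiological libraries, a log2 fold change of -2.06 (95% CI -3.90 to -0.22, edgeR adjusted p = 1). Esm1 had one of -4.18 (95% CI -8.52 to 0.17). The fold changes of these lists leaned the same way as those of the hepatocyte list (19 of 20 negative, median -0.53) and the stellate list (11 of 13 negative, median -1.20), and the part of cell content in them was not tested.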

How the data were processed

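Each deposited file holds RSEM-style expected counts per gene of 1 library, unscaled, per the file headers. The submitters' processing notes list STAR, RSEM and limma and no versions. No source used here gives the build, the annotation or the use of strand. Between 4.33% and 10.4% of values per library were not whole, so reads shared between copies or overlapping genes are uncertain.

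Rounded counts of all 6 libraries were tested with edgeR 4.0.16 in R 4.3.3 (quasi-likelihood, filterByExpr, TMM, no covariate). P-values were two-sided and adjusted by Benjamini-Hochberg over 12742 genes, with a threshold of 0.05. CPM used TMM-scaled totals, and log2 CPM a prior count of 2. Confidence intervals are 95% intervals. A count of 0 allows up to 3 counts, and such limits cover counting error only. Alternatives included DESeq2 1.42.0 and limma 3.58.1. The edgeR steps were run on simulated data with much less spread than these libraries, which checks the code and not its power or error here. Members and lists were chosen with earlier results of these data known. Of 211 list symbols, 204 were matched. Named genes were the 10 members, the 2 genes of smallest p in the endothelial and transcription factor lists and the 3 genes closest to Erg and to Gata4. The same rule for the lists of other cell types gave Tat, Cyp3a2, Pdgfrb, Acta2, Adgre1, C1qa, Lck, Itga2b, Krt19 and Sox9, all with an edgeR adjusted p of 1. Every pair of libraries differed beyond sampling noise (chi-square per degree of freedom 89 to 1200). Samples were grouped by labelled pressure, and replicate numbers follow accession order.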

Additional observations from a re-analysis of the deposited data

How the results depend on the processing

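Over 19 alternatives, 0 of the 10 factors passed the adjusted threshold in any. The count of all genes past it was 0 in each except DESeq2 with 1 and the libraries above 10000 CPM of the hepatocyte list with 155. The median log2 fold change of the 10 factors, -0.71 in the reported fit, was -1.82 with limma-voom, -2.66 with limma-voom with sample weights, -2.37 with the 4 libraries with under 20% of tested genes at 0 and -1.64 with a replicate block. It ran from -2.25 to -0.17 with 1 library left out and was 0.33 in the libraries above 10000 CPM of the hepatocyte list. In those libraries the log2 fold change turned to 0.36 for Erg, 0.53 for Fli1, 0.20 for Ets1, 0.32 for Tal1 and 0.33 for Maf. With 1 library left out, Fli1 ran from -1.99 to 0.10, Maf from -2.17 to 0.25 and Sox18 from -8.03 to 0.78, and Maf was 0.04 without pathological replicate 2. Gata4 turned to -0.03 with sample weights. Sox18 turned to -3.83 with limma-voom, -8.15 with sample weights, -0.31 when physiological replicate 1 was left out, -2.28 when hepatocyte content was a term of the fit, -4.94 in the libraries below 10000 CPM, -7.66 in the 4 libraries and -4.08 with a replicate block. In total 17 of the factors' fold changes turned and 173 kept their sign. The cause was not tested.

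No label states a pairing, but the titles hold neighbouring sample numbers across the groups, and a block of these was added after seeing the data. Deviations from the group means correlated at 0.64, -0.21 and 0.39 within the 3 pairs. Pathological replicate 2 correlated best with physiological replicate 1 of another pair, at 0.43, and both were poor in hepatocyte RNA. With 3 libraries per group and uneven hepatocyte RNA, such correlations cannot decide whether the libraries were paired. The block is therefore given as an alternative only. With the block, 0 genes passed the adjusted threshold with edgeR, and 31 had an unadjusted p under 0.05. Within each of the 3 pairs Sox7, Sox17 and Lmo2 were lower at pathological pressure, as were 11.4% of all tested genes. Other scaling factors and low-count filters turned the sign of no factor. Pecam1 was not matched, so the alternative marker was Cdh5 alone. The 0 counts of Sox7 and Sox18 allow up to 0.284 and 0.142 CPM, and 3 libraries per group with this spread gave intervals several log2 units wide.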
